A study of Mus musculus with 12 samples.

Results

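The keratin-associated protein genes, whose symbols begin with Krtap, were followed in neonatal mouse dermis on arrays labelled tail or back, each site at P1 and at P5, in 4 groups. Members were all probe sets that the platform annotation gives to exactly 1 gene with such a symbol, which made 43 probe sets of 38 genes in 22 numbered subfamilies, out of 45037 probe sets tested. A further 6 probe sets carry a Krtap symbol among several symbols and were left out. The RNA came from C57Bl6/CBA F1 mice on day 1 (P1) or day 5 (P5) after birth, with 3 Affymetrix MG430.2A arrays for each group, and the study profiled both sites to look for differences behind hair follicle (HF) formation in wounds. The labels describe RNA of triplicate mice, and 1 array is read here as 1 mouse. For P1 they state that tail skin was placed in EDTA and back skin in dispase-trypsin before the dermis was lifted from the epidermis, and the same text stands on the P5 arrays. Site and separation solution therefore cannot be told apart. No genotype or treatment other than age and site is given.

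Keratin-associated proteins form the matrix between the keratin filaments of the hair shaft and are made by hair shaft keratinocytes in the growing follicle, not by fibroblasts of the dermis. They are sorted by amino acid composition into high glycine-tyrosine, high sulfur and ultrahigh sulfur proteins. In textbook accounts the high glycine-tyrosine genes come on early in the hair cortex and the ultrahigh sulfur genes late, with some families, such as subfamilies 5, 10 and 12, known from the hair cuticle. Follicles reach down into the dermis and are taken along with it, so their transcripts can be measured there. In bulk RNA, fewer hair shaft cells and less Krtap RNA in each cell cannot be told apart.

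Each deposited value is a log2 value from which the median of its probe set over the 12 arrays has been taken away, so 0 is the middle of the 12 arrays and no level can be given or compared between genes. A difference of 1 on this scale is a ratio of 2 on the array. A probe set is called here when the Benjamini-Hochberg adjusted p of limma over all 45037 probe sets was under 0.05. Counts at an unadjusted p under 0.05 are given for members only. The share of all probe sets at that level was not counted, so such a count shows no excess by itself. Each limma p-value rests on 1 spread per probe set, shared by the 4 groups of 3 mice and moderated over all probe sets. A site comparison at P5 therefore draws on the P1 arrays too. For Krtap5-4 the SD was 0.16 and 0.38 at P1 in labelled tail and back, and 0.61 and 1.085 at P5. For Krtap5-3 the SDs of the 4 groups lay between 0.505 and 0.627. So few arrays set a limit to precision. Where groups are said not to overlap, the share of all probe sets without overlap was not counted. Such a separation comes from the same values as the call and adds no support to it.

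The site labels went against position markers. The median of 15 probe sets of posterior Hox genes, which pattern the hind end of the body, was between -0.77 and -0.47 on the P1 arrays labelled tail and between 0.49 and 0.71 on those labelled back. At P5 it was between -0.70 and -0.52 and between 0.45 and 0.69. Adipocyte genes had medians of 1.12 to 1.85 in P1 labelled tail and of -1.45 to -1.42 in P1 labelled back. This opposes the direction that the study gives for fat genes at P1. The groups are named by their labels throughout and were not exchanged; if the labels were exchanged, every site difference below would change its sign and the rises with age would change places. P5 tail replicate 2 stood apart with an SD of 0.50 over all probe sets against 0.23 to 0.34 on the other arrays, and P1 back replicates 1 and 6 were high in cartilage genes, with medians of 2.06 and 1.54. Medians of 16 dermal fibroblast probe sets lay between -0.13 and 0.10 on all arrays, and those of 20 probe sets of epidermal keratinocyte genes between -0.75 and 0.45. Single epidermal genes could vary far more than this median. In P1 labelled tail 1 probe set of Lor read -3.60, 1.64 and -0.90, while 1 of Trp63 read -0.20, 0.17 and 0.01.

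The promoters of 9 members, chosen after their values were seen, are shown because these genes carry the patterns described below. Krtap19-2, which had the largest rise of subfamily 19, and Krtap16-3 were called higher at P5 at both sites, Krtap6-3 only in the arrays labelled tail, and Krtap28-13, Krtap5-2, Krtap5-4 and Krtap4-2 only in those labelled back. Krtap1-5 and Krtap6-5 had the highest site differences at P1. Each run holds the 100 bases before the RefSeq gene start (GRCm38.p6), 5′ to 3′ on the strand of the gene, and the capitals mark the TATA box letters TATAAA where they begin 20 to 40 bases before the start.
Krtap19-2 (chr16:88874270-88874369, minus strand): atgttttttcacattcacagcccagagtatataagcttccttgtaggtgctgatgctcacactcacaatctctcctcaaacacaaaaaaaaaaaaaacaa
Krtap16-3 (chr16:88962874-88962973, minus strand): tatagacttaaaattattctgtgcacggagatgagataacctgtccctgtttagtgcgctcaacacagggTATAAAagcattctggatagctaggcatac
Krtap6-3 (chr16:89083924-89084023, plus strand): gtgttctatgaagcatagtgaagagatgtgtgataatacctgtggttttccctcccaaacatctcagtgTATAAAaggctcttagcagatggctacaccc
Krtap6-5 (chr16:89047900-89047999, minus strand): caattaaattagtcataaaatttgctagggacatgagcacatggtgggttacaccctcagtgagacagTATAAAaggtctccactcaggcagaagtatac
Krtap1-5 (chr11:99581017-99581116, minus strand): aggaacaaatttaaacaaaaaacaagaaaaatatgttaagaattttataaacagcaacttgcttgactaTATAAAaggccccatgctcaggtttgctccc
Krtap4-2 (chr11:99635085-99635184, minus strand): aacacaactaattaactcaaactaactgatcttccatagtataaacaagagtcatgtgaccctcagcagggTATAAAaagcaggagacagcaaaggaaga
Krtap5-2 (chr7:142176006-142176105, minus strand): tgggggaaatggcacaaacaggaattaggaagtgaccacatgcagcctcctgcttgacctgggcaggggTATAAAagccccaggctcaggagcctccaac
Krtap5-4 (chr7:142303402-142303501, plus strand): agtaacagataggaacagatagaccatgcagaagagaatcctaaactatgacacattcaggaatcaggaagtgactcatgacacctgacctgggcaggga
Krtap28-13 (chr1:83060830-83060929, plus strand): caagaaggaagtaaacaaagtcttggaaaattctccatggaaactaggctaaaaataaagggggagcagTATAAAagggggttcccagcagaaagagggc

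Krtap19-2 and Krtap5-4 do not hold these letters at this place and the others shown do. This does not show that they lack a TATA box, since only the exact letters were searched and the annotated gene start was taken as given. Krtap19-2 holds the letters tatataag farther upstream. Within subfamily 19 only Krtap19-9b holds TATAAA at this place. Of 36 member genes with a promoter in the RefSeq table, 21 (58.3%) hold TATAAA at this place on the gene strand, against 655 of 32851 promoters of all genes (1.99%). By class it was 6 of 13 high glycine-tyrosine, 4 of 9 high sulfur and 9 of 12 ultrahigh sulfur genes. Krtap7-1 and Krtap12-1 had no entry. In the 250 bases before the start and on either strand, TATAAA was found in 77.8% of members and 12.4% of all promoters, CTTTGA (the core of Lef1 and Tcf sites) in 25.0% and 13.8%, TTNATNG (a Hoxc13 motif) in 47.2% and 26.4%, and GACGC (a Foxn1 core) in 5.56% and 22.6%. Each motif was counted by itself, so matches of different motifs may share bases. The shares were not adjusted for base composition or for similar sequence between the promoters of related members. These are matches of letters and no measure of binding.

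Krtap transcripts were higher at P5 than at P1 at both labelled sites, in most members in the arrays labelled back and in fewer in those labelled tail. In the arrays labelled back, 36 of 43 probe sets were called higher at P5 (83.7%, against 1.24% of all probe sets) and 0 were called lower (1.05% of all). The median difference of the 43 was 2.16, a 4.47-fold rise, where the median over all probe sets was 0.01. In the arrays labelled tail, 20 of 43 were called higher (46.5%, against 1.77% of all) and 0 lower (1.35% of all), with a median of 1.43, or 2.69-fold, where all probe sets had 0.01. At an unadjusted p under 0.05, 42 and 25 members were higher and 0 were lower at either site. Of the members called, 18 were called at both sites, which is 50.0% of those called in back and 90.0% of those called in tail. A call at 1 site alone does not show that the sites differ. That difference was tested by the interaction of site and age below, which called 1 member in the main fit and more under some alternatives.

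**Figure D1:**
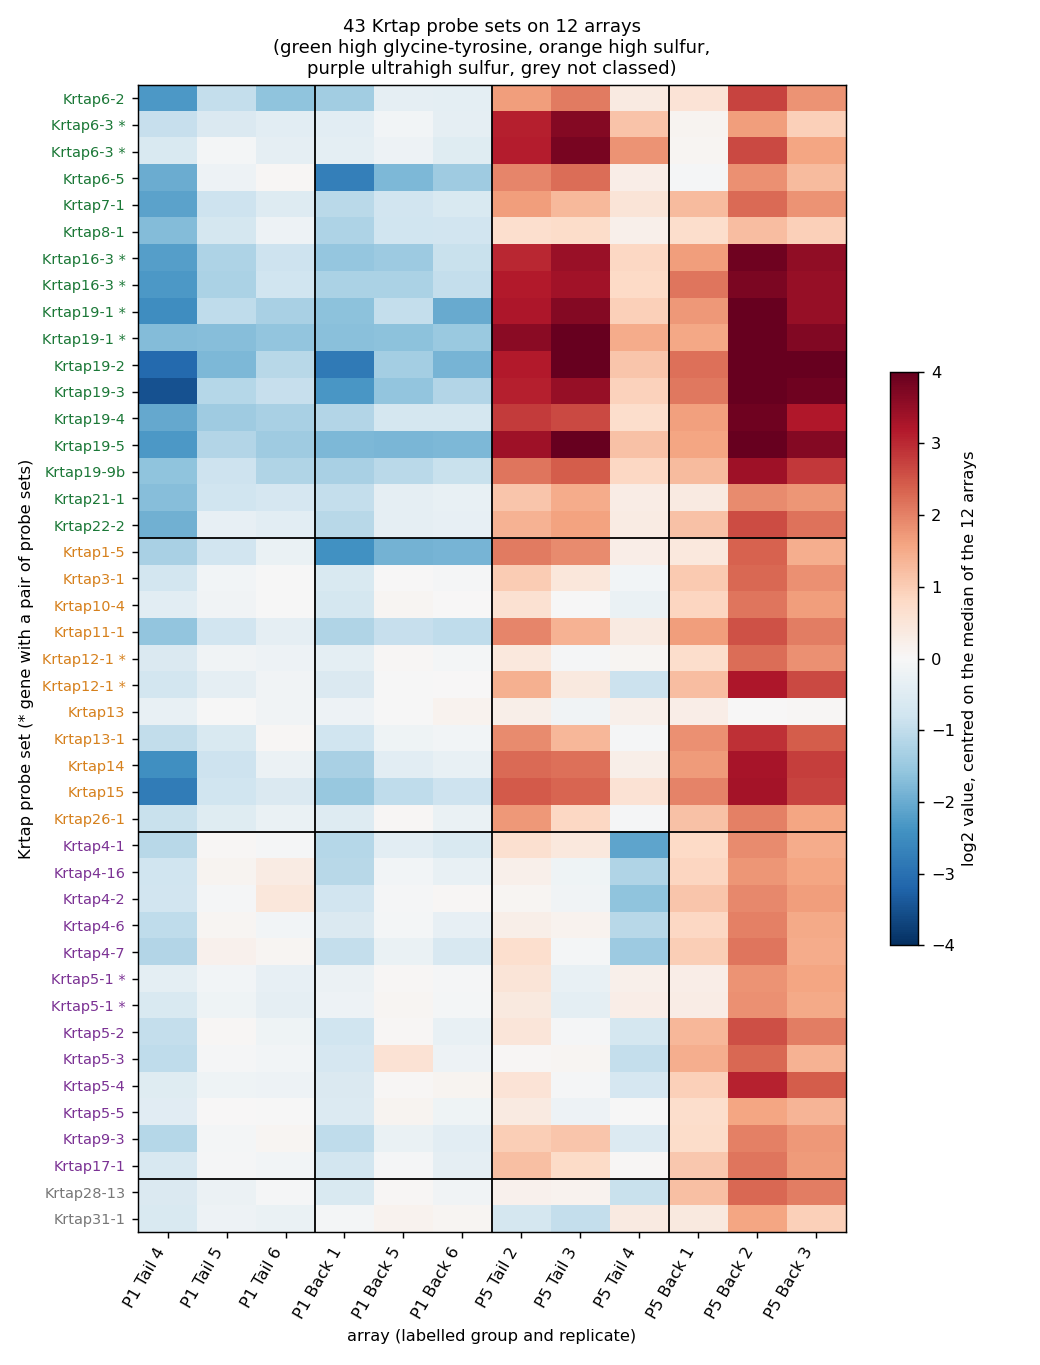
Log2 values of the 43 Krtap probe sets (rows, coloured by class) on the 12 arrays (columns, by labelled group and replicate), each centred on the median of the 12 arrays. The high glycine-tyrosine rows are red on the P5 arrays of both labelled sites, except for Krtap6-5 at -0.05 on P5 back replicate 1, and the ultrahigh sulfur rows are red on the P5 arrays labelled back.

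The classes of these proteins, assigned by subfamily number from textbook knowledge after the values had been seen, are given one by one, with no test between them. Of 17 high glycine-tyrosine probe sets, 15 were called higher at P5 in back (median difference 3.58) and 16 in tail (median 3.29). Of 11 high sulfur probe sets, 10 were called in back (median 2.56) and 4 in tail (median 1.40). Of 13 ultrahigh sulfur probe sets, 10 were called in back (median 1.91) and 0 in tail (median 0.20, with 1 at an unadjusted p under 0.05). Krtap28-13 and Krtap31-1 were put in no class, and 1 of them was called in back and 0 in tail.

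**Figure D2:**
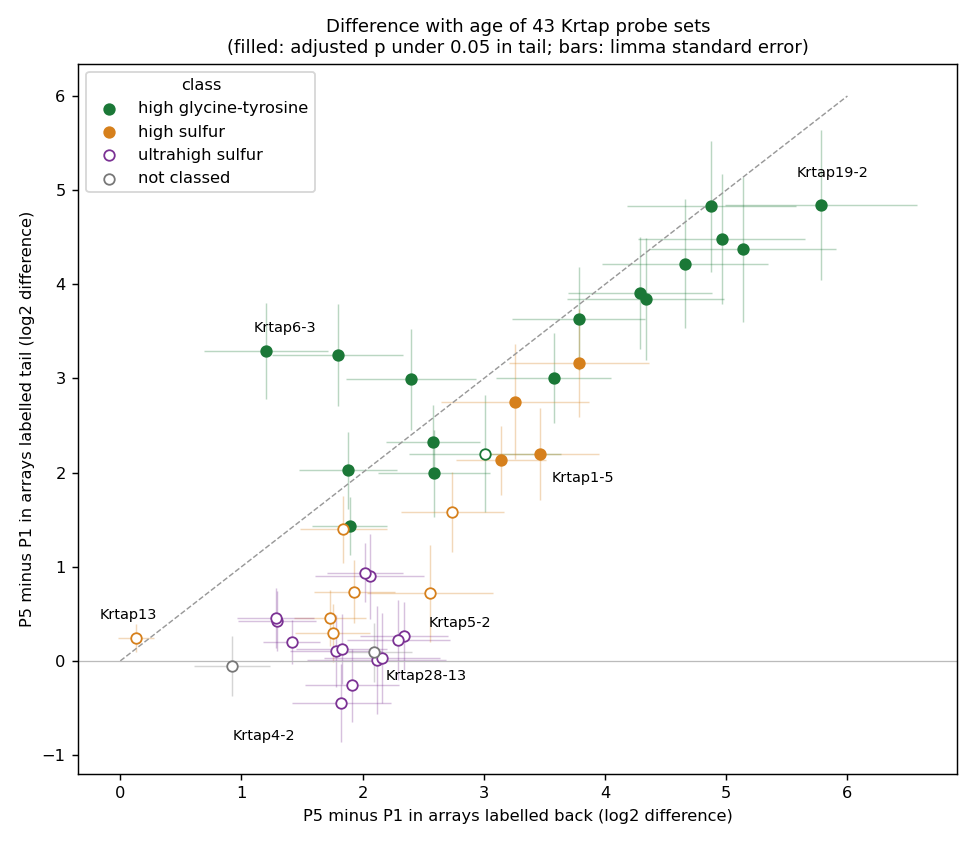
Difference between P5 and P1 (log2) in arrays labelled back (horizontal) and labelled tail (vertical) for the 43 Krtap probe sets, coloured by class, with the standard errors of limma as bars and filled points at an adjusted p under 0.05 in tail. The dashed line marks equal differences; the ultrahigh sulfur probe sets lie between 1.28 and 2.34 across and between -0.44 and 0.94 up.

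The high glycine-tyrosine subfamily 19 had the largest rises. Krtap19-2, a member of it, stood at -3.11, -1.78 and -1.11 in the 3 P1 arrays labelled tail and at -2.82, -1.35 and -1.87 in those labelled back. At P5 it stood at 3.17, 4.24 and 1.11 in labelled tail and at 2.21, 4.97 and 4.13 in labelled back. All P5 arrays lay above all P1 arrays, and the rise was 55.1-fold in back (log2 5.78, standard error 0.79, adjusted p = 0.0019 from limma) and 28.7-fold in tail (log2 4.84, standard error 0.79, adjusted p = 0.0047). Krtap19-3 stood at 2.11, 4.35 and 3.90 in labelled back and 3.12, 3.49 and 0.93 in labelled tail at P5, and at P1 at -2.33, -1.57 and -1.16 in labelled back and -3.50, -1.15 and -0.93 in labelled tail. Krtap19-5 had values of -2.29, -1.16 and -1.42 (P1 labelled tail), -1.80, -1.82 and -1.78 (P1 labelled back), 3.40, 4.03 and 1.16 (P5 labelled tail) and 1.58, 4.24 and 3.67 (P5 labelled back). In both genes P1 tail replicate 4 was the lowest array and P5 back replicate 2 the highest, and the ages did not overlap at either site. The rise of Krtap19-3 was 35.3-fold in back and 20.7-fold in tail, and that of Krtap19-5 31.2-fold and 22.4-fold. The pair of Krtap19-1 probe sets rose by 4.88 and 4.66 in back and by 4.83 and 4.22 in tail on the log2 scale. The probe set with the larger rise read -1.67, -1.63 and -1.47 at P1 and 1.56, 4.57 and 3.72 at P5 in labelled back, with -1.74, -1.69 and -1.59 at P1 and 3.62, 4.38 and 1.47 at P5 in labelled tail. Krtap19-4 and Krtap19-9b rose by 3.78 and 3.58 in back and by 3.64 and 3.01 in tail. All 7 probe sets of the subfamily were called at both sites, and they remained so when any 1 array was left out.

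Krtap16-3, also rich in glycine and tyrosine, read -2.30, -1.27 and -0.81 in P1 labelled tail, -1.27, -1.26 and -0.95 in P1 labelled back, 3.17, 3.35 and 0.81 in P5 labelled tail and 2.14, 3.75 and 3.49 in P5 labelled back. It rose 19.5-fold in back (log2 4.29, standard error 0.59, adjusted p = 0.002 from limma) and 15-fold in tail, and its other probe set 20.2-fold and 14.4-fold. The lowest P5 array, tail replicate 4 at 0.81, was still above every P1 array. Krtap7-1 stood at 1.26, 2.25 and 1.79 in labelled back and 1.68, 1.28 and 0.52 in labelled tail at P5, and at P1 at -1.09, -0.76 and -0.60 in labelled back and -2.14, -0.84 and -0.52 in labelled tail. Krtap8-1 had values of -1.74, -0.71 and -0.21 (P1 labelled tail), -1.24, -0.79 and -0.75 (P1 labelled back), 0.67, 0.75 and 0.21 (P5 labelled tail) and 0.71, 1.23 and 0.96 (P5 labelled back). Both genes were called at both sites, Krtap7-1 with a 5.99-fold rise in back and a 5.03-fold rise in tail and Krtap8-1 with 3.71-fold and 2.69-fold. Krtap21-1 read -0.94, -0.36 and -0.30 at P1 and 0.37, 1.91 and 1.76 at P5 in labelled back, with -1.71, -0.80 and -0.67 at P1 and 1.12, 1.47 and 0.30 at P5 in labelled tail. Krtap22-2 read -1.92, -0.32 and -0.42 in P1 labelled tail, -1.12, -0.37 and -0.34 in P1 labelled back, 1.40, 1.61 and 0.32 in P5 labelled tail and 1.17, 2.60 and 2.16 in P5 labelled back. Their ages did not overlap at either site, P5 tail replicate 4 was the lowest P5 array in both, and the rises were 3.68-fold in back and 4.06-fold in tail for Krtap21-1 and 6.01-fold and 3.98-fold for Krtap22-2.

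The members of subfamily 6 differed in their calls. Krtap6-5 stood at -0.05, 1.84 and 1.28 in labelled back and 1.96, 2.23 and 0.28 in labelled tail at P5, and at P1 at -2.73, -1.80 and -1.43 in labelled back and -1.99, -0.19 and 0.05 in labelled tail. It was called higher at P5 in back (8.05-fold, adjusted p = 0.022 from limma) but not in tail (4.60-fold, adjusted p = 0.079). Krtap6-2 rose in back by 2.40 and in tail by 2.99. Krtap6-3, singled out after its values were seen, had values of -0.93, -0.57 and -0.41 (P1 labelled tail), -0.41, -0.10 and -0.37 (P1 labelled back), 3.12, 3.69 and 1.15 (P5 labelled tail) and 0.10, 1.66 and 0.95 (P5 labelled back). Its second probe set read -0.40, -0.21 and -0.49 at P1 and 0.06, 2.64 and 1.57 at P5 in labelled back, with -0.62, -0.06 and -0.35 at P1 and 3.13, 3.79 and 1.79 at P5 in labelled tail. Both were called higher at P5 in tail only, 9.78-fold and 9.51-fold, while in back the differences of 1.20 and 1.79 were not called (adjusted p = 0.38 and 0.14). All 3 P5 back arrays still lay above the P1 back arrays in both. The largest gap between both probe sets on any array was 0.98.

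**Figure D3:**
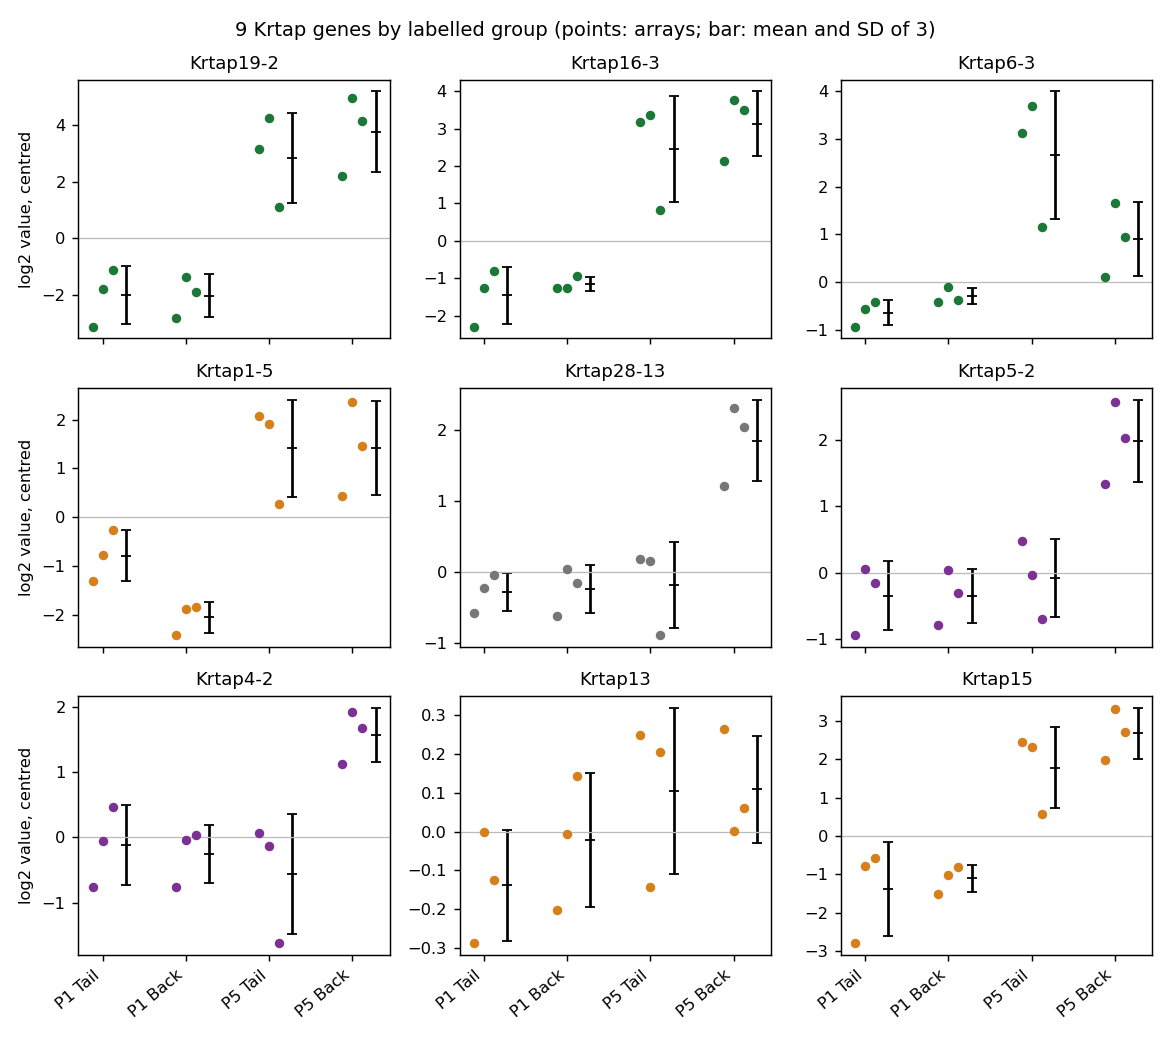
Centred log2 values (vertical axis, separate scale in each panel) of 9 Krtap genes by labelled group, with points for the 3 arrays of a group and a bar for their mean and SD. Krtap19-2, Krtap16-3 and Krtap15 are higher on the P5 arrays of both sites, Krtap6-3 is highest in P5 labelled tail, and Krtap28-13, Krtap5-2 and Krtap4-2 are highest in P5 labelled back.

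Among the high sulfur genes, Krtap15 moved most. It read -2.80, -0.79 and -0.57 in P1 labelled tail, -1.51, -1.01 and -0.81 in P1 labelled back, 2.45, 2.33 and 0.57 in P5 labelled tail and 1.99, 3.32 and 2.71 in P5 labelled back. The rise was 13.8-fold in back (log2 3.79, standard error 0.58, adjusted p = 0.0032 from limma) and 8.98-fold in tail (log2 3.17, standard error 0.58, adjusted p = 0.009), with no overlap of the ages. Krtap14 stood at 1.72, 3.29 and 2.77 in labelled back and 2.27, 2.21 and 0.24 in labelled tail at P5, and at P1 at -1.29, -0.42 and -0.28 in labelled back and -2.46, -0.84 and -0.24 in labelled tail. Krtap11-1 had values of -1.57, -0.77 and -0.35 (P1 labelled tail), -1.21, -0.93 and -1.03 (P1 labelled back), 1.95, 1.40 and 0.35 (P5 labelled tail) and 1.67, 2.54 and 2.05 (P5 labelled back). Krtap1-5 read -2.41, -1.88 and -1.85 at P1 and 0.43, 2.36 and 1.45 at P5 in labelled back, with -1.31, -0.78 and -0.27 at P1 and 2.06, 1.91 and 0.27 at P5 in labelled tail. These were the other 3 high sulfur genes called at both sites, with rises in back and in tail of 9.57-fold and 6.75-fold, 8.82-fold and 4.38-fold, and 11-fold and 4.59-fold. In tail the call of Krtap1-5 was lost in 4 of the 12 fits that left out 1 array, with an adjusted p of up to 0.13 without P1 tail replicate 4.

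Krtap13-1 read -1.00, -0.61 and 0.04 in P1 labelled tail, -0.79, -0.16 and -0.12 in P1 labelled back, 1.88, 1.32 and -0.04 in P5 labelled tail and 1.82, 2.91 and 2.42 in P5 labelled back. Krtap26-1 stood at 1.18, 2.01 and 1.57 in labelled back and 1.75, 0.84 and -0.05 in labelled tail at P5, and at P1 at -0.52, 0.05 and -0.28 in labelled back and -0.90, -0.49 and -0.26 in labelled tail. Both were called in back, at 6.69-fold and 3.58-fold, and missed the threshold in tail, with differences of 1.58 and 1.40 and adjusted p-values of 0.065 and 0.053 from limma. Krtap3-1 had values of -0.72, -0.10 and -0.02 (P1 labelled tail), -0.61, 0.02 and -0.05 (P1 labelled back), 1.02, 0.46 and -0.12 (P5 labelled tail) and 1.05, 2.30 and 1.81 (P5 labelled back). Krtap10-4, a gene of a cuticle family, read -0.70, 0.08 and 0.02 at P1 and 0.85, 2.12 and 1.68 at P5 in labelled back, with -0.41, -0.15 and -0.02 at P1 and 0.59, -0.03 and -0.25 at P5 in labelled tail. Krtap12-1, of another cuticle family, read -0.72, -0.34 and -0.14 in P1 labelled tail, -0.57, -0.02 and 0.02 in P1 labelled back, 1.41, 0.40 and -0.86 in P5 labelled tail and 1.22, 3.24 and 2.63 in P5 labelled back. In these 3 probe sets the P5 back arrays lay above every P1 array, while P5 labelled tail overlapped P1 labelled tail, and the differences were 1.93, 1.75 and 2.56 in back, all called, against 0.74, 0.30 and 0.72 in tail, none called. The other probe set of Krtap12-1 stood at 0.70, 2.22 and 1.83 in labelled back and 0.41, -0.03 and 0.09 in labelled tail at P5, and at P1 at -0.40, 0.03 and -0.07 in labelled back and -0.56, -0.14 and -0.20 in labelled tail. It was called in back (1.73, adjusted p = 0.0072 from limma) and not in tail (0.46, adjusted p = 0.45), although its ages did not overlap in tail. The exception in the class was the probe set named Krtap13, which lay between -0.29 and 0.27 on the 12 arrays and was called in no comparison.

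The ultrahigh sulfur genes, subfamilies 4, 5, 9 and 17, had 10 of 13 probe sets called higher at P5 in back and 0 in tail. Krtap5-4 had values of -0.47, -0.18 and -0.21 (P1 labelled tail), -0.58, 0.06 and 0.10 (P1 labelled back), 0.54, -0.06 and -0.67 (P5 labelled tail) and 0.96, 3.08 and 2.42 (P5 labelled back). Krtap5-2 read -0.79, 0.03 and -0.30 at P1 and 1.34, 2.59 and 2.04 at P5 in labelled back, with -0.94, 0.06 and -0.16 at P1 and 0.47, -0.03 and -0.70 at P5 in labelled tail. Krtap5-3 read -1.03, -0.04 and -0.12 in P1 labelled tail, -0.67, 0.57 and -0.20 in P1 labelled back, 0.04, 0.08 and -0.94 in P5 labelled tail and 1.47, 2.31 and 1.40 in P5 labelled back. For these genes of the cuticle subfamily 5, the 3 P5 back arrays were above all 9 other arrays, and P5 labelled tail overlapped P1 labelled tail. In back they rose 4.91-fold, 5.07-fold and 3.55-fold, and in tail the log2 differences were 0.22, 0.26 and 0.12. Krtap5-5 was also called in back (1.41). The pair of Krtap5-1 probe sets came to 1.29 and 1.28 in back and missed the threshold (adjusted p = 0.055 and 0.056 from limma).

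In subfamily 4, known from the hair cortex, Krtap4-7 stood at 1.00, 2.13 and 1.47 in labelled back and 0.67, -0.08 and -1.45 in labelled tail at P5, and at P1 at -0.96, -0.27 and -0.65 in labelled back and -1.18, 0.17 and 0.08 in labelled tail. Krtap4-2 had values of -0.75, -0.06 and 0.46 (P1 labelled tail), -0.76, -0.04 and 0.04 (P1 labelled back), 0.06, -0.13 and -1.62 (P5 labelled tail) and 1.12, 1.92 and 1.68 (P5 labelled back). P5 tail replicate 4 was the lowest of the 12 arrays in both, and the P5 back arrays were the highest 3. In back the rises were 4.47-fold and 3.54-fold, and those of Krtap4-16 and Krtap4-6 were 3.76-fold and 3.43-fold, while Krtap4-1 at 2.12 was not called (adjusted p = 0.085 from limma). In tail the 5 genes lay between -0.44 and 0.10. Krtap9-3 read -1.02, -0.25 and -0.43 at P1 and 0.72, 2.01 and 1.74 at P5 in labelled back, with -1.15, -0.07 and 0.07 at P1 and 1.00, 1.10 and -0.55 at P5 in labelled tail. Krtap17-1 read -0.66, -0.04 and -0.10 in P1 labelled tail, -0.75, -0.04 and -0.35 in P1 labelled back, 1.22, 0.76 and 0.04 in P5 labelled tail and 1.08, 2.13 and 1.70 in P5 labelled back. They had the largest tail differences of the class, 0.90 and 0.94 (adjusted p = 0.32 and 0.13), and were called in back at 4.16-fold and 4.06-fold.

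Of the pair in no class, Krtap28-13 stood at 1.20, 2.30 and 2.04 in labelled back and 0.17, 0.15 and -0.89 in labelled tail at P5, and at P1 at -0.62, 0.04 and -0.15 in labelled back and -0.57, -0.22 and -0.04 in labelled tail. It rose 4.26-fold in back (adjusted p = 0.0031 from limma) and differed by 0.09 in tail, where the ages overlapped. Krtap31-1 had values of -0.62, -0.21 and -0.28 (P1 labelled tail), -0.07, 0.15 and 0.07 (P1 labelled back), -0.69, -0.94 and 0.36 (P5 labelled tail) and 0.39, 1.57 and 0.95 (P5 labelled back). It was called with age at neither site, and its P5 tail arrays lay on both sides of its P1 tail arrays.

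The methods' t-test called 0 members with age at either site after adjustment, with 37 in back and 20 in tail at an unadjusted p under 0.05. The count in back depended on single arrays. Without P1 back replicate 1 there were 23 members called, without P5 back replicate 2 there were 22 and without P5 back replicate 3 there were 24. Without P1 back replicates 1 and 6 together, which leaves 1 array in that group, 0 were called by limma and 38 had an unadjusted p under 0.05. In all 12 fits that left out 1 array, 22 probe sets were called in back and 15 in tail, and the latter were of Krtap6-2, Krtap6-3, Krtap7-1, Krtap11-1, Krtap15, Krtap16-3 and subfamily 19. Without P5 tail replicate 2, the array that stood apart, 16 were called in tail. Shares of all probe sets called in these fits are not given. The shifts therefore cannot be told apart from shifts over the whole array.

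The site comparisons share their arrays with the age comparisons and with each other through the interaction, so they are other views of the same 12 arrays. At P1, 0 of 43 members were called higher in arrays labelled tail (1.57% of all probe sets were) and 0 lower (1.15% of all). By limma 1 member was higher at an unadjusted p under 0.05, and the t-test of each probe set on the same arrays called 0 after adjustment, with 2 at an unadjusted p under 0.05. The median difference was -0.12, where all probe sets had -0.02. Krtap1-5 had arrays that did not overlap, being 1.26 higher in labelled tail (standard error 0.49, adjusted p = 0.27 from limma), and Krtap6-5 differed by 1.28 (adjusted p = 0.43). The arrays of Krtap19-4 and Krtap31-1 did not overlap either, with differences of -0.73 and -0.42, and the other 40 probe sets overlapped between the sites. The share of all probe sets without overlap was not counted, so these separations show no excess by themselves.

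At P5, 14 of 43 members were called lower in the arrays labelled tail than in those labelled back (32.6%, against 1.82% of all probe sets), and 0 were called higher (2.94% of all), with 2 higher at an unadjusted p under 0.05. The median difference was -0.94, or 1.92-fold lower, where all probe sets had -0.03. The 14 were 8 of 13 ultrahigh sulfur probe sets, 4 of 11 high sulfur probe sets, both genes of no class and 0 of 17 high glycine-tyrosine probe sets. None of the 14 was called higher at P5 in tail. Krtap5-4 was 4.65-fold lower (log2 -2.22, standard error 0.43, adjusted p = 0.0095 from limma), Krtap4-2 4.39-fold (log2 -2.13, adjusted p = 0.0095) and Krtap5-2 4.21-fold (log2 -2.08, adjusted p = 0.0048). Krtap28-13 was 4.10-fold lower, Krtap5-3 3.99-fold and the second Krtap12-1 probe set 4.13-fold. In all of these but Krtap12-1 the arrays did not overlap. For Krtap12-1, P5 tail replicate 2 at 1.41 lay above P5 back replicate 1 at 1.22. The share of all probe sets without overlap was not counted at P5 either. Krtap4-16, Krtap4-7, Krtap4-6, Krtap10-4, the other Krtap12-1 probe set, Krtap31-1, Krtap3-1 and Krtap5-5 made up the rest, with differences from -1.82 to -1.16.

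The high glycine-tyrosine probe sets had a median site difference of -0.50 at P5, with 0 called and 2 higher at an unadjusted p under 0.05, both of Krtap6-3. Krtap19-2 differed by -0.93 with a standard error of 0.79 and Krtap16-3 by -0.68 with 0.59, and such errors leave room for differences of either sign. Krtap6-3 had the opposite sign, 3.36-fold and 2.79-fold higher in labelled tail, but its arrays overlapped and it missed the threshold (adjusted p = 0.073 and 0.16 from limma). Krtap1-5, apart at P1, had a difference of 0.00 at P5.

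The count at P5 also rested on single arrays. It was 5 lower and 1 higher without P5 back replicate 2, and 5 lower without P5 back replicate 3. Without P5 tail replicate 4 it was 11 lower and 2 higher, where the lowest adjusted p of the Krtap6-3 probe sets over the fits that left out 1 array was 0.0016 and 0.036. Without P5 tail replicate 2 it was 16, of which 13 were among the 14. Krtap28-13, Krtap4-2, Krtap5-2, Krtap5-3 and Krtap5-4 were called in all 12 fits that left out 1 array. With each array weighted by its quality it was 7, and with the P5 arrays alone 6. Without the 20% of probe sets of lowest SD it was 18 lower and 1 higher. The methods' t-test called 0 after adjustment, with 10 at an unadjusted p under 0.05. Shares of all probe sets called in these fits are not given, so the shifts are not shown to be particular to the members.

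**Figure D4:**
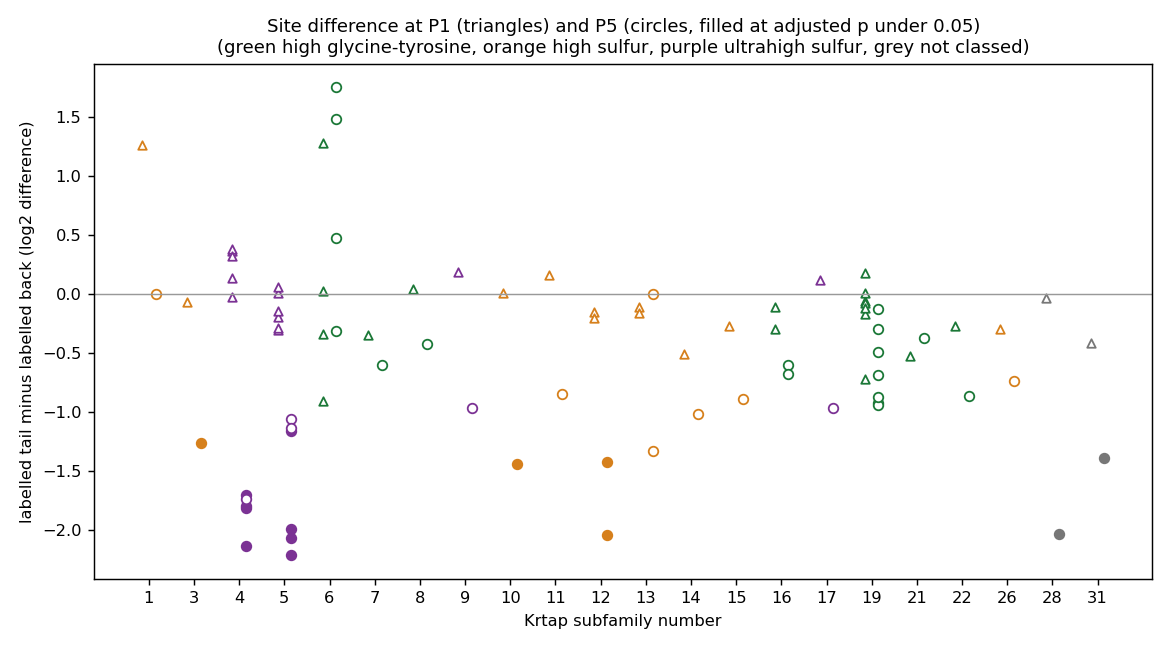
Difference between arrays labelled tail and labelled back (log2, vertical) for each Krtap probe set by subfamily number (horizontal), with triangles for P1 and circles for P5, filled at an adjusted p under 0.05. At P1 most probe sets lie near 0, and at P5 those of subfamilies 4, 5, 12 and 28 reach -1.06 to -2.22.

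The interaction asked whether the site difference at P5 departed from that at P1. It called 0 of 43 members higher (1.09% of all probe sets) and 1 lower (0.646% of all), which was Krtap28-13 at -2.00 (standard error 0.45, adjusted p = 0.041 from limma). At an unadjusted p under 0.05, 16 were lower and 1 was higher, and the median of the 43 was -0.87 where all probe sets had -0.01. The median was -1.70 for the ultrahigh sulfur, -1.16 for the high sulfur and -0.44 for the high glycine-tyrosine probe sets. Krtap4-2, Krtap4-16, Krtap4-7, Krtap4-1, Krtap5-2 and Krtap5-4 had larger differences than Krtap28-13, from -2.27 to -2.07. These were not called (adjusted p from 0.064 to 0.28 by limma). The call of Krtap28-13 was lost in 8 of the 12 fits that left out 1 array, with an adjusted p between 0.023 and 0.12. In these fits the count of members called ranged from 0 to 7. Array weights and the filter on lowest SD also raised the count, and the replicate block raised it most, as given in the closing section. The count therefore depended on the model as well as on single arrays. Shares of all probe sets called in those fits are not given.

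Mice within a group also differed, and the members moved together when they did. P1 tail replicate 4 was the lowest of its group in 43 of 43 probe sets, P1 back replicate 1 in 40, P5 tail replicate 4 in 37 and P5 back replicate 1 in 41, while P5 back replicate 2 was the highest of its group in 42. The order of the arrays over all probe sets was not counted, so these counts are not shown to be particular to the members. The median of the 43 was -1.10, -0.32 and -0.26 in P1 labelled tail, -0.96, -0.25 and -0.36 in P1 labelled back, 1.40, 1.10 and 0.24 in P5 labelled tail and 1.08, 2.30 and 1.79 in P5 labelled back. The P5 arrays therefore lay above the P1 arrays at both sites, and the sites overlapped at both ages. For the ultrahigh sulfur probe sets the P5 medians were 0.47, -0.06 and -0.70 in labelled tail and 0.86, 2.01 and 1.58 in labelled back, which did not overlap. For the high glycine-tyrosine probe sets they were 3.02, 3.35 and 0.82 against 1.26, 3.39 and 2.83, which did.

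Krtap genes lie in clusters of the genome. On chromosome 16 (RefSeq, GRCm38.p6), which holds all high glycine-tyrosine members and high sulfur members such as Krtap14 and Krtap15, 20 of 23 probe sets were called higher at P5 in back, 19 in tail and 0 by site at P5. On chromosome 11, home of subfamilies 4, 9 and 17 and of Krtap1-5, Krtap3-1 and Krtap31-1, these counts were 8, 1 and 6 of 10. On chromosome 7, with subfamily 5, they were 4, 0 and 4 of 6, and on chromosome 10, with Krtap10-4 and Krtap12-1, 3, 0 and 3 of 3. Krtap28-13 was the member on chromosome 1. Probe sets of neighbouring genes with similar sequence may share signal, and 4 of the 43 carry suffixes of the array for such sequence.

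Other gene lists of the hair follicle are given beside the Krtap genes. Of all probe sets, 1.24% were called higher and 1.05% lower at P5 in back, and 1.77% were called higher in tail. By site, 2.94% were called higher and 1.82% lower in labelled tail at P5, and 1.57% and 1.15% at P1. Of 12 probe sets of hair shaft keratins, the filament proteins that Krtap proteins surround, 10 were called higher at P5 in back (median 2.57; Krt36 and Krt84 were not) and 6 in tail (median 1.32), and 6 were lower in labelled tail at P5 (median -1.17). Their medians per array were 1.38, 0.90 and 0.16 in P5 labelled tail and 1.41, 2.37 and 1.99 in P5 labelled back, with P5 tail replicate 4 again the lowest. Of 28 probe sets of matrix and shaft regulators, 12 were called higher at P5 in back, among them Hoxc13 and both of Foxn1, and 4 in tail, while neither probe set of Lef1 was called with age at either site. By site at P5, 4 regulators were called higher in labelled tail, a pair each of Vdr and Foxq1, and 2 lower, Hoxc13 and 1 of Lef1, with a median of -0.08. Of 13 probe sets of the inner root sheath, the layer that moulds the shaft, 10 were called higher at P5 in back and 1 in tail. At P1 6 were called higher and 2 lower in labelled tail, where no Krtap member was called. Both lower ones were of Tgm3, and the other 11 had a higher mean in labelled tail. By site at P5 0 were called by limma and 4 were lower at an unadjusted p under 0.05. Of 20 probe sets of epidermal keratinocyte genes, 8 were called higher in labelled tail at P5 and 0 lower, with array medians of 0.20 to 0.45 against -0.75 to -0.34, so they ran the other way from the Krtap genes. With age 9 of them were called lower in back and 5 were called higher in tail. The part of these cells in the Krtap differences was not tested.

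**Figure D5:**
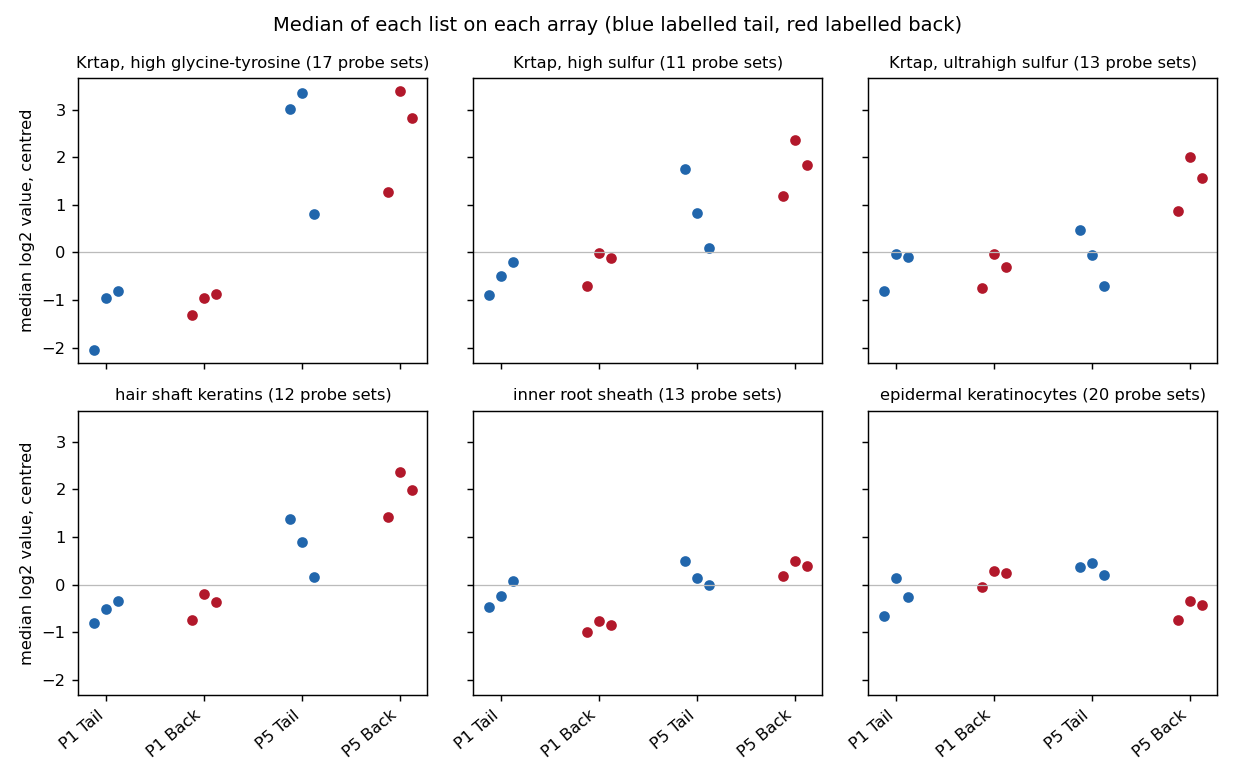
Median centred log2 value (vertical) of 3 Krtap classes and 3 companion lists on each array, by labelled group (blue for labelled tail, red for labelled back). Hair shaft keratins had P5 medians of 0.16 to 1.38 in labelled tail and 1.41 to 2.37 in labelled back, beside 0.09 to 1.75 and 1.18 to 2.36 for the high sulfur class. The high glycine-tyrosine medians overlapped between the sites at P5, and the ultrahigh sulfur medians were -0.70 to 0.475 in labelled tail. Epidermal keratinocyte genes were higher in labelled tail at P5.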

How the data were processed

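Members, classes, lists and motifs were chosen with earlier results of these data known. The authors normalised the arrays with RMA, and the deposited log2 values hold 45101 probe sets, each centred on its median over the 12 arrays (0 within 1e-06). The log base is that of RMA. The centring removes levels, so the methods' filter on the lowest 20% of values was not repeated, and probe sets of lowest SD were left out in its place as an alternative. Apart from 64 controls, all 45037 probe sets entered 1 fit of 4 group means to the 12 arrays (R 4.3.3, lmFit then eBayes of limma 3.58.1), with Benjamini-Hochberg adjustment of p-values over every probe set. Genes were named from 34945 probe sets with 1 symbol, and 932 with several and 9160 with none were not named. All 38 Krtap genes matched RefSeq (GRCm38.p6) by gene identifier, with no symbol changed. Values in full are given for the member of each subfamily with the largest difference between group means and for the 6 members with the largest called difference in each comparison and direction, and members singled out after their values were seen are marked or stand in lists of 5 or fewer. Alternatives were array centring, robust variances, array weights, the replicate block, only the arrays compared, the methods' t-test, each array left out, P1 back replicates 1 and 6 left out, probe sets of shared sequence left out and averaging per gene. The procedure was tested on simulated data. No column of per-sample values was left unused.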

Additional observations from a re-analysis of the deposited data

Results flagged for a closer look

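The site difference of Krtap28-13 differed between the ages by the interaction term of limma. It was -0.04 at P1 and -2.04 at P5 (log2, labelled tail minus labelled back), a change of -2.00 with an adjusted p = 0.041. All 3 P5 arrays labelled tail lay below the 3 labelled back, and the P1 arrays overlapped. In the fits that left out 1 array the adjusted p ranged from 0.023 to 0.12 and the call was lost in 8 of 12. The sign rests on the site labels, which went against the Hox genes. The change of Krtap28-13 was not the largest among the members. Krtap4-2, Krtap4-16, Krtap4-7, Krtap4-1, Krtap5-2 and Krtap5-4 had changes from -2.27 to -2.07. These were not called (adjusted p from 0.064 to 0.28 by limma).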

How the results depend on the processing

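No difference of a called member changed sign under any alternative. Members that were not called did in 27 of 43 for site at P1, 9 of 29 for site at P5, 0 of 7 for age in back, 11 of 23 for age in tail and 11 of 42 for the interaction, and none was called with the other sign. Krtap1-5 by site at P5 went from 0.00 to 0.57 without P5 tail replicate 4, and with age in tail Krtap28-13 went from 0.09 to -0.09 and Krtap5-4 from 0.22 to -0.08 without P5 tail replicate 2. Without 1 array, the members called ranged from 0 to 0 for site at P1, from 5 to 16 for site at P5, from 22 to 39 for age in back, from 15 to 24 for age in tail and from 0 to 7 for the interaction, against 0, 14, 36, 20 and 1. Site at P5 was lowest without P5 back replicates 3 (5) and 2 (6), and age in back without P5 back replicate 2 (22) and P1 back replicate 1 (23). The interaction called 0 without P1 tail replicates 5 or 6, any P1 back array, or P5 back replicates 2 or 3, and 2, 4, 2 and 7 without P1 tail replicate 4, P5 tail replicates 2 or 4 and P5 back replicate 1.

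Array weights gave 1, 7, 42, 13 and 5 calls in the same order of comparisons, and only the arrays compared gave 1 for site at P1 and 6 for site at P5. Without P1 back replicates 1 and 6, age in back and the interaction had 0 calls by limma (38 and 8 at an unadjusted p under 0.05), and that group then holds 1 array, assumed to vary like the others. The methods' t-test called 0 after adjustment for site at P1, site at P5, age in back and age in tail (2, 10, 37 and 20 unadjusted), where 3 arrays against 3 and 45037 tests limit it. Without the 20% of probe sets of lowest SD the interaction called 5. Array centring, robust variances, shared-sequence probe sets left out and averaging per gene moved no count by over 1.5 times. The cause of these shifts was not tested. Shares of all probe sets called under the alternatives, or without 1 array, are not given, so the counts cannot be set against them.

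Replicate numbers 5 and 6 at P1 and 2 and 3 at P5 recur at both sites. Deviations of same-numbered arrays correlated at 0.23, 0.01, 0.21 and -0.05, so the numbers were not taken as pairs. The replicate block joined all arrays of the same number, across the ages as well as the sites. It joined P1 with P5 tail replicate 4, and P1 with P5 back replicate 1, which are read as different mice. These 4 arrays were the lowest of their groups in 43, 37, 40 and 41 of the 43 members. Whether the block took up this shared spread was not tested. With the replicate block 2, 23, 37, 21 and 20 members were called in the same order of comparisons. The last of these is the interaction, which called 1 member in the main fit. Shares of all probe sets called with this block are not given, so the 20 cannot be set against them.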
